A study of Mus musculus with 9 samples.

Results

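The comparison covers 6 thyroid RNA-seq libraries, 3 from mice with the genotype label Smarcb1 KO and 3 from mice labelled Wildtype, out of 9 libraries in the series. The other 3 are labelled Arid2 KO and entered the fit to help estimate the spread between libraries. All were made from flash-frozen mouse thyroid. The labels give no promoter or Cre line behind the knockouts, no deleted exons, age, sex or strain, no other allele that the groups may share, and do not say whether libraries of a group came from separate animals, so p-values measure the spread between these libraries. Libraries of a group are numbered by deposit order, which carries no pairing. All 17079 genes that passed a filter on low counts, of 33924 in the table, were tested.

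Smarcb1 (also called Snf5, Baf47 or Ini1) is a core subunit of the SWI/SNF chromatin remodelling complexes, which use ATP to move and evict nucleosomes and keep enhancers and promoters open. The subunit belongs to canonical BAF and to PBAF, and Arid2 belongs to PBAF alone. Loss of SMARCB1 is the defining event of rhabdoid tumours in people. The thyroid is built of follicular epithelial cells, which store thyroglobulin in a closed lumen and make thyroid hormone from it. Their identity rests on a small set of transcription factors, Nkx2-1, Pax8, Foxe1 and Hhex.

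In Smarcb1 KO thyroid Foxe1 was 4.58-fold lower than in wild type, while Tg and Slc5a5, genes of hormone production, were not called. The claudin gene Cldn3, the AP-1 gene Junb and the androgen-metabolising enzyme gene Srd5a1 were lower by 3.42-fold, 4.54-fold and 6.94-fold, and Cdk5rap1, Rassf4, Eya1 and Plxna2 were higher by 2.9-fold, 2.67-fold, 2.44-fold and 2.38-fold. In lists of respiratory chain, ribosomal, collagen and junction and polarity genes, 17.5% to 21.3% of the members were lower, beside 5.74% of all genes. These shares are not matched for base composition. Collagens had a median of 55.4% G and C, and 15.2% of all genes at 55% to 60% were lower. After correction for base composition, 0 of 40 collagens and 1 of 31 junction and polarity genes were lower. The counts were 9 of 76 respiratory chain genes, 6 of 75 mitochondrial and 8 of 76 cytoplasmic ribosomal proteins, beside 1.94% of all genes. More genes were lower than higher, GC-rich transcripts above all, and many calls depended on single libraries.

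Total counts ran from 33666251 to 34045321 in wild type and from 38644867 to 41362640 in Smarcb1 KO, and thyroglobulin took 24.1% to 30.8% of each of these libraries. Markers of neighbouring tissues differed between the libraries. The summed level of 6 parathyroid markers was 1996, 9283 and 52.2 CPM (counts scaled to library size, with TMM factors) in wild-type libraries 1, 2 and 3, and 21957, 12235 and 16789.7 CPM in Smarcb1 KO libraries 1, 2 and 3. Every Smarcb1 KO library was above every wild-type library, and wild-type library 3 held almost none. Parathyroid hormone itself, Pth, was at 1199, 4172 and 0.0297 CPM in wild type and 16751, 5892 and 9307 in Smarcb1 KO. Thymocyte markers summed to 13.9, 281 and 7.17 CPM in Smarcb1 KO, high in library 2 alone, against 16.3, 17.8 and 9.49 in wild type. For erythroid markers the sums were 1482, 309 and 1373 CPM in wild type against 183, 216 and 118 in Smarcb1 KO, all higher in wild type. In bulk tissue, fewer cells of a type and less RNA per cell cannot be told apart. The follicular markers Tg, Tshr, Pax8 and Nkx2-1 were present in all 6 libraries. The summed level of 6 sex genes linked to X or Y was 183, 192 and 214 CPM in wild type and 316, 229 and 811 in Smarcb1 KO. In Smarcb1 KO library 3, 2 of these 6 genes had 0 counts, and no other library compared had such a gene. A part of sex in the changes was not tested.

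**Figure D1:**
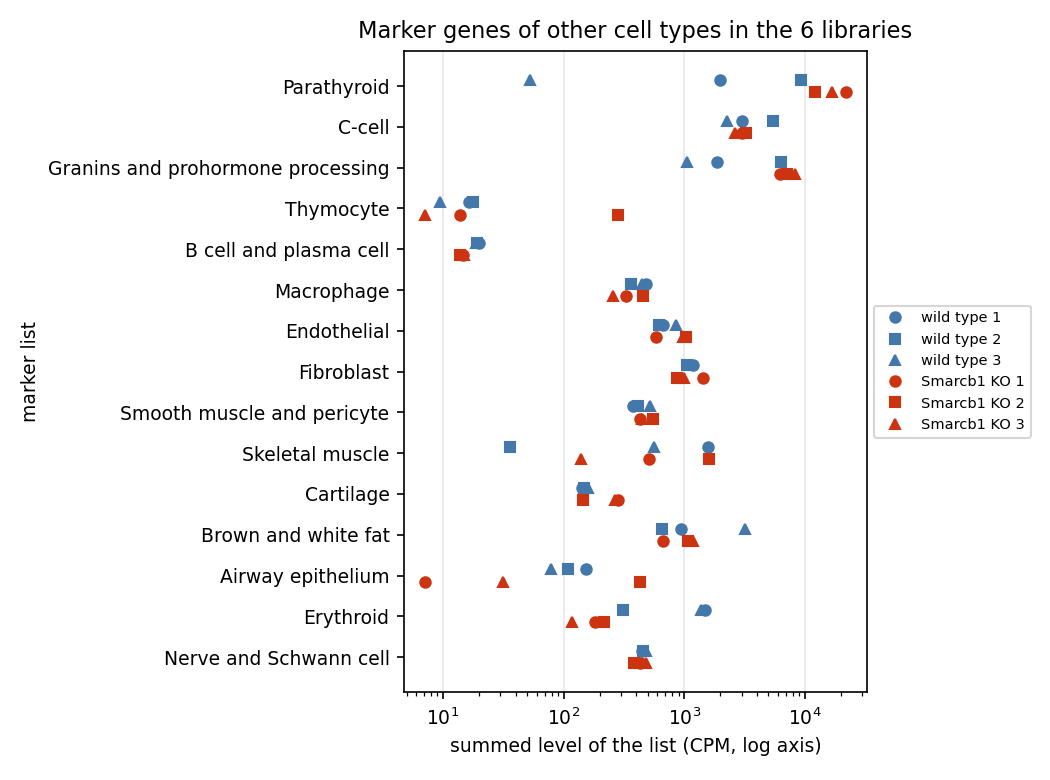
Summed level of each marker list, in CPM on a log axis, in the 3 wild-type (blue) and 3 Smarcb1 KO (red) libraries, with 1 symbol per library number. Parathyroid sums are higher and erythroid sums lower in all 3 Smarcb1 KO libraries, and the thymocyte sums are set apart by Smarcb1 KO library 2. Airway sums in Smarcb1 KO lie on both sides of wild type, from 7.12 CPM in library 1 to 433 in library 2.

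The targeted gene checks the label first. Smarcb1 was at 65.9, 71.7 and 69.3 CPM in wild type and 47.5, 53.7 and 59.4 in Smarcb1 KO. All 3 Smarcb1 KO libraries were below all 3 wild-type libraries, with means of 53.5 ± 5.98 and 69.0 ± 2.93 CPM (SD, n = 3 each). On the log2 scale this was -0.36 (SE 0.106, adjusted p = 0.0651) by edgeR's quasi-likelihood test with Benjamini-Hochberg adjustment over all genes, the test behind every adjusted p given here unless another is named. It missed the threshold of 0.05, and the exact two-sided permutation test of the 6 libraries gave p = 0.1, the smallest that 3 against 3 allows. The DESeq2 Wald test did call it, at -0.38 (adjusted p = 0.0135). Against Arid2 KO, where Smarcb1 stood at 57.3, 59.4 and 64.6 CPM, the change was -0.17 (adjusted p = 0.265). A gene-level count takes in reads from every exon and from every cell of the gland, so it does not measure the deleted part.

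Among 26 tested SWI/SNF subunits 1 rose and 0 fell, beside 2.15% and 5.74% of all genes. Smarcc1 (Baf155), a scaffold that binds Smarcb1 directly in the core module, was at 39.2, 42.8 and 39.9 CPM in wild type and 51.9, 57.2 and 60.4 in Smarcb1 KO. The groups did not overlap, and it rose by 0.48 (SE 0.123, adjusted p = 0.0486). The call was lost without any 1 of the 6 libraries, with adjusted p = 0.176 once each library's trend over GC content was removed and 0.247 with a parathyroid covariate. Smarce1 (Baf57), another core subunit, was at 37.8, 41.1 and 38.8 CPM in wild type and 53.4, 48.9 and 47.4 in Smarcb1 KO, a change of 0.35 (adjusted p = 0.0646) that was -0.0014 after the GC trend was removed. Gltscr1 (Bicra), which marks the noncanonical BAF complex that lacks Smarcb1, was at 16.9, 17.4 and 15.5 CPM in wild type and 6.004, 11.4 and 10.99 in Smarcb1 KO, a change of -0.81 (adjusted p = 0.0574). The ATPase Smarca4 (Brg1) had -0.23 (adjusted p = 0.415) and the BAF subunit Arid1a 0.21 (adjusted p = 0.503), with groups that overlapped in both.

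Across the 17079 genes tested, 1349 were called at an adjusted p under 0.05, 7.9% of all. Of these 368 were higher in Smarcb1 KO (2.15%) and 981 lower (5.74%). The median change of all genes was 0.05 on the log2 scale and 9332 genes were positive. The 3 libraries of 1 group were all above the 3 of the other for 5763 genes, or 33.7%. Against Arid2 KO, 2779 genes were called (16.3%), 1187 higher and 1592 lower in Smarcb1 KO.

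Individual libraries weighed on the count. It was 344 without Smarcb1 KO library 3, 371 without wild-type library 1, 543 without wild-type library 2, 545 without wild-type library 3, 721 without Smarcb1 KO library 1 and 2538 without Smarcb1 KO library 2, which carries the thymocyte markers. Leaving out Arid2 KO library 2, which is in neither group, gave 657. Of the 125 called genes named in the text with their changes, 49 were still called without Smarcb1 KO library 3, 54 without wild-type library 1, 64 without wild-type library 3, 74 without Smarcb1 KO library 1, 77 without wild-type library 2 and 119 without Smarcb1 KO library 2. With the mean log2 level of Pth, Gcm2 and Casr as a covariate the count was 197, or 1.15%, with 29 higher (0.17%) and 168 lower (0.984%). Of the 125 named genes 43 were called there. The covariate was 6.09, 8.05 and 1.08 in wild type and 9.19, 8.51 and 8.86 in Smarcb1 KO, higher in every Smarcb1 KO library. It goes with the group, so a call lost with it cannot tell parathyroid RNA from genotype.

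**Figure D2:**
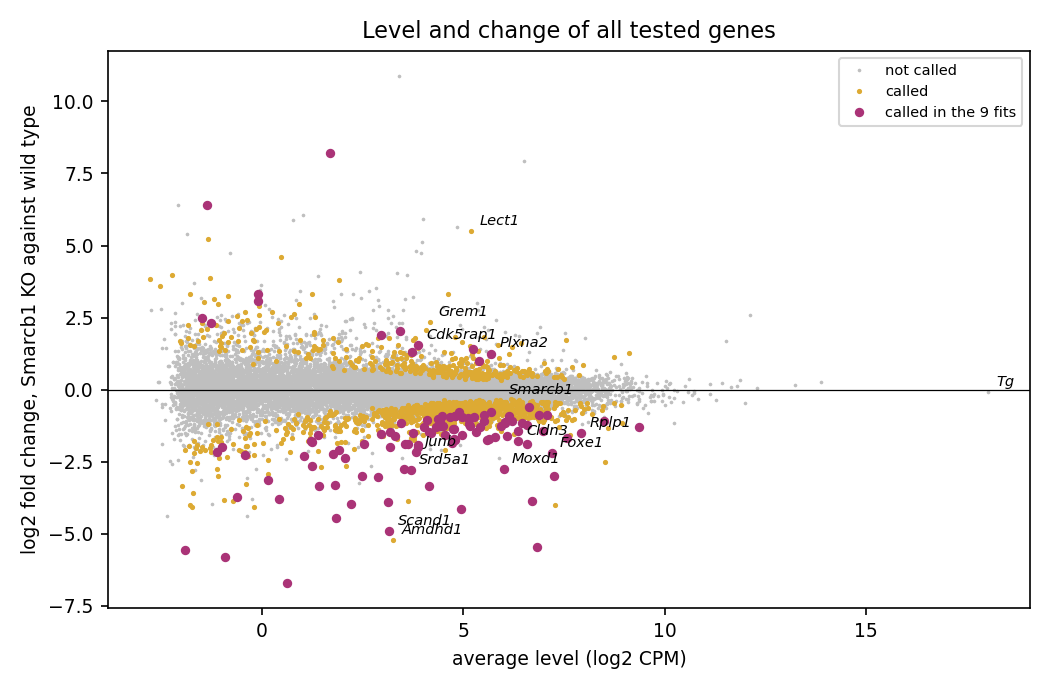
Average level (log2 CPM, horizontal) against the log2 fold change of Smarcb1 KO over wild type (vertical) for the 17079 tested genes, grey where not called, yellow where called, purple for the 113 genes called in 9 fits. Called genes lie mostly below 0, and Foxe1, Cldn3, Junb and Scand1 are among the purple ones.

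The direction of change followed the base composition of the transcripts. In the 678 genes whose longest transcript is above 60% G and C, the median log2 fold change was -0.73, 237 genes were lower (34.96%) and 0 were higher. In the 961 genes under 40% it was 0.34, with 36 higher (3.75%) and 3 lower (0.312%). Each wild-type library read GC-rich genes above the mean of all libraries, by 0.22 to 0.33 on the log2 scale above 60% GC. Each Smarcb1 KO library read them below it, at -0.86 in library 1, -0.47 in library 3 and -0.20 in library 2. With each library's own GC trend taken out, 418 genes were called (2.45%), 86 higher (0.504%) and 332 lower (1.94%), and 347 of the 1349 were among them. Transcript length moved with the change too, from -0.12 for transcripts of 1000 to 2000 bases to 0.23 for those above 6000. The source of either trend was not tested. Of the 125 called genes named, 49 were called with the GC trend removed.

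**Figure D3:**
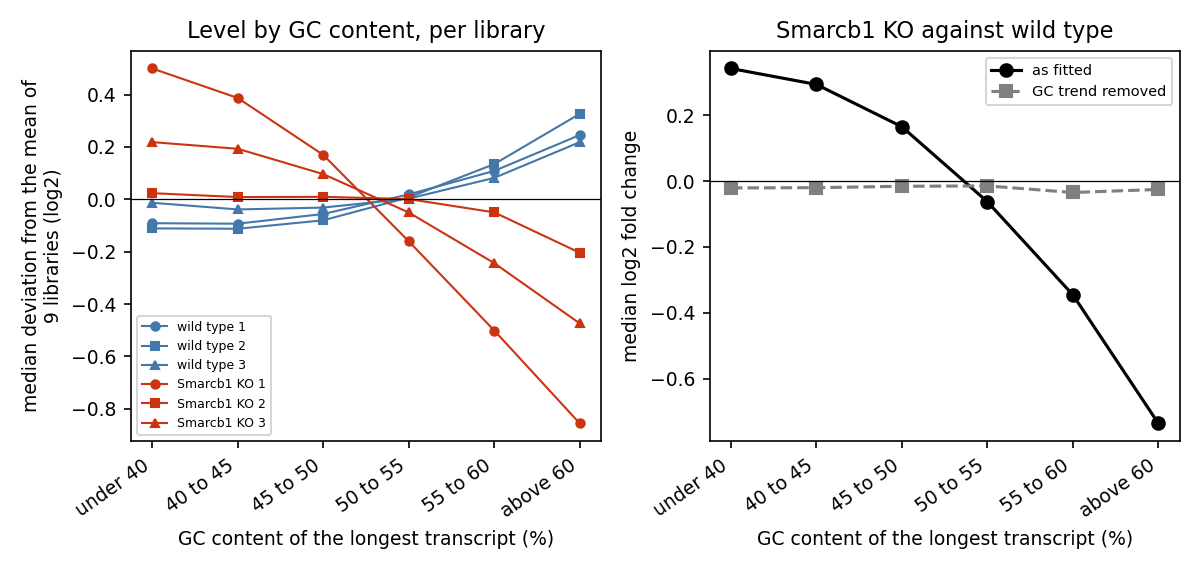
Left, the median deviation of each library from the mean of 9 libraries (log2) in 6 bins of GC content. Right, the median log2 fold change of Smarcb1 KO over wild type as fitted (circles) and with the GC trend removed (squares). The 3 wild-type lines rise and the 3 Smarcb1 KO lines fall with GC content, and the fold change goes from 0.34 to -0.73 before removal.

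Sequences from the middle of the coding region show the composition of single genes. Each line holds 120 coding bases, 5′ to 3′ on the coding strand, from GENCODE M21 transcripts of the build GRCm38, with G and C in capitals. The first 3 genes fell and are GC-rich, Gdpd3 fell with a stretch that is not, and Flrt2 and Qpct rose.
Scand1: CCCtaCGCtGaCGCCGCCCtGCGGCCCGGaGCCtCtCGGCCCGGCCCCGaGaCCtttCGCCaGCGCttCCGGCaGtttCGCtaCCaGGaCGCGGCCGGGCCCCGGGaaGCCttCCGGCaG
Nrtn: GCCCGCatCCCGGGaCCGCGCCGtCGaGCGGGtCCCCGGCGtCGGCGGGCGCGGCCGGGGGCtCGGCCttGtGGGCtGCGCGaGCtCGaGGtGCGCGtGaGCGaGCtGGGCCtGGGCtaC
Foxe1: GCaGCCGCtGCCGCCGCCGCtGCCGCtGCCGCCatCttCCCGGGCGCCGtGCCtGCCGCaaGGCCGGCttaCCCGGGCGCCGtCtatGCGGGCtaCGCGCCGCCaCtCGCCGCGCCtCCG
Gdpd3: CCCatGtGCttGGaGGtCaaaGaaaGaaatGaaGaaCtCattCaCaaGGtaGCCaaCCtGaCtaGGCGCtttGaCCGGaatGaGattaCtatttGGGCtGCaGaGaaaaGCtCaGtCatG
Flrt2: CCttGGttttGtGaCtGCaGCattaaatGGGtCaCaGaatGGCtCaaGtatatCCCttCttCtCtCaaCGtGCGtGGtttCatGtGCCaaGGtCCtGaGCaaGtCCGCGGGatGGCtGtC
Qpct: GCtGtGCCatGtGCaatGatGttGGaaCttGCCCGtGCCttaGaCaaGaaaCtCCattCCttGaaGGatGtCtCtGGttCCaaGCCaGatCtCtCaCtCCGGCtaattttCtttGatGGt

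The stretch of Scand1 (chromosome 2, coding bases 154 to 273) is 75.8% G and C, that of Nrtn (chromosome 17, bases 232 to 351) 80.8%, and that of Foxe1 (chromosome 4, bases 496 to 615) 80%. The run of alanine codons in Foxe1 encodes part of the polyalanine tract this factor is known for. Gdpd3 (chromosome 7, bases 436 to 555) is at 45.8%, Flrt2 (chromosome 12, bases 931 to 1050) at 50.8% and Qpct (chromosome 17, bases 484 to 603) at 47.5%. The GC trend used the whole transcript, which is 68.4% in Scand1, 72.8% in Nrtn and 62.8% in Foxe1. It is 53.4% in Gdpd3, 41.8% in Flrt2 and 43.4% in Qpct, so Gdpd3 and Flrt2 rank the other way there. Removal of the GC trend took the change of Scand1 from -4.92 to -3.35, of Nrtn from -4.47 to -2.23 and of Foxe1 from -2.19 to -1.31. That of Gdpd3 went only from -3.02 to -2.93. All 4 falls stayed called. The rises of Flrt2 and Qpct, at 1.46 and 1.74, were not called there.

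Of the thyroid transcription factors, edgeR called Foxe1 lower and 4 others were not called. DESeq2 called 3 of the 5 lower and limma-voom 1, and without Smarcb1 KO library 3 edgeR called 2 lower. Foxe1, the forkhead factor needed for thyroid migration and for transcription of thyroglobulin, was at 241, 278 and 201 CPM in wild type and 44.7, 61.8 and 50.9 in Smarcb1 KO. The groups lay far apart, a log2 change of -2.19 (SE 0.191, adjusted p = 0.00102). The fall was called in each of the 6 fits without 1 library, with the parathyroid covariate at -2.196 (adjusted p = 0.00722), and with the GC trend removed at -1.31 (adjusted p = 0.00248). Pax8, the paired-box factor of follicular cells, was at 491, 452 and 370.1 CPM in wild type and 304, 308 and 327 in Smarcb1 KO. Its groups did not overlap, and the change was -0.48 (SE 0.149, adjusted p = 0.0763). Nkx2-1 was at 327, 339 and 295 CPM in wild type and 211, 199 and 301 in Smarcb1 KO, where Smarcb1 KO library 3 lay among the wild-type libraries, with a change of -0.44 (SE 0.157, adjusted p = 0.111). Hhex had 0.00 (adjusted p = 0.999) and Glis3 0.15 (adjusted p = 0.685).

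Thyroid hormone production showed few calls. Of 24 tested genes 1 rose and 0 fell, beside 2.15% and 5.74% of all genes, though 19 were negative and the median was -0.16. The thyroglobulin gene Tg was at 318001, 258674 and 244999 CPM in wild type and 247461, 225709 and 300565 in Smarcb1 KO, with overlapping groups and a change of -0.09 (adjusted p = 0.869). The sodium-iodide symporter Slc5a5, which brings iodide into the cell, was at 389, 533 and 478 CPM in wild type and 386, 462 and 113 in Smarcb1 KO. Smarcb1 KO library 3 was low and the other 5 libraries overlapped, so the change of the group was -0.54 (SE 0.414, adjusted p = 0.407). The thyrotropin receptor Tshr had 0.26 (adjusted p = 0.508) and the dual oxidase Duox2 -0.25 (adjusted p = 0.363). The dual oxidase maturation factors Duoxa2 and Duoxa1 had -0.28 (adjusted p = 0.326) and -0.60 (adjusted p = 0.298), and the deiodinase Dio1 -0.54 (adjusted p = 0.189). Lrp2 (megalin), the endocytic receptor that takes up thyroglobulin, was the gene that rose, from 143, 160.4 and 115 CPM in wild type to 258, 178 and 251 in Smarcb1 KO, by 0.72 (SE 0.172, adjusted p = 0.0386). Its groups did not overlap, but the call held in 1 of the 6 fits without 1 library. The call was lost with the GC trend removed, at 0.60 (adjusted p = 0.129), and with the parathyroid covariate, at 0.51 (adjusted p = 0.2). Within each group the libraries had the same order for Lrp2 as for the summed parathyroid markers.

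**Figure D4:**
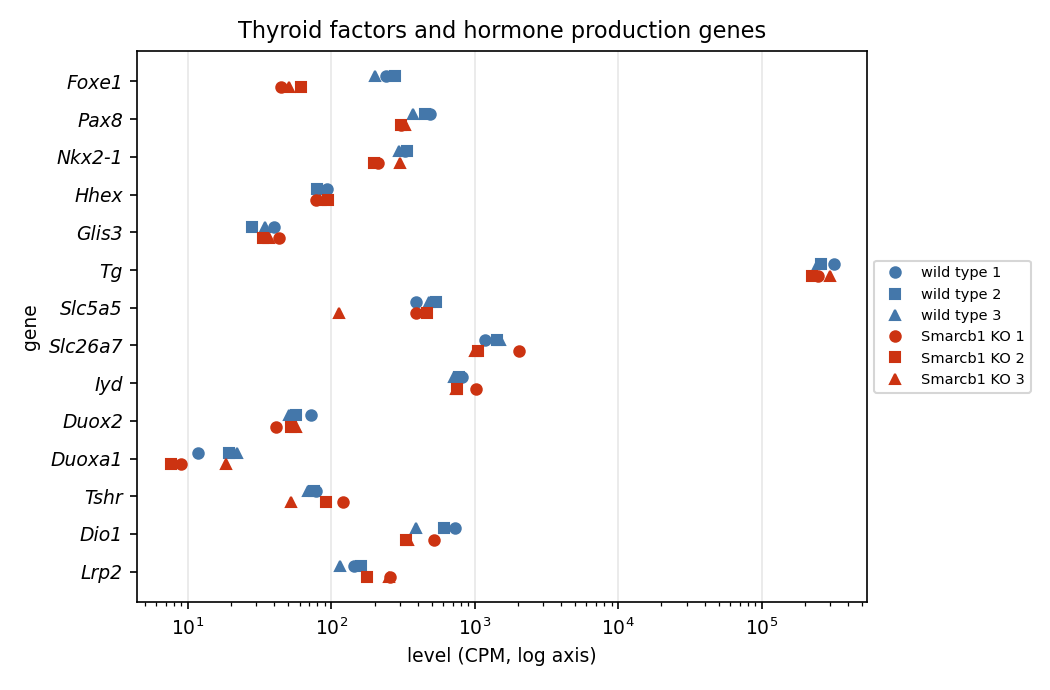
Level of 14 thyroid genes in CPM on a log axis, in the 3 wild-type (blue) and 3 Smarcb1 KO (red) libraries. Foxe1 is the gene whose groups are farthest apart, Slc5a5 has 1 low Smarcb1 KO library at 113 CPM, and Tg is within 225709 to 318001 CPM in all 6.

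The strictest set of changes is the 113 genes, 0.662% of all, that were called in the main fit, with the GC trend removed, with the parathyroid covariate, and in all 6 fits without 1 library. Of these 100 were lower, 13 were higher and 36 have provisional symbols. The smallest p in this set went to Scand1, a SCAN-domain protein, at 15.1, 18.2 and 15.9 CPM in wild type and 0.483, 0.747 and 0.379 in Smarcb1 KO. It was 30.2-fold lower, a change of -4.92 (SE 0.29, adjusted p = 0.00052). Gdpd3, a lysophospholipase D of lipid turnover, was at 13.4, 8.4 and 11.9 CPM in wild type and 1.27, 1.45 and 1.41 in Smarcb1 KO, a change of -3.02 (SE 0.217, adjusted p = 0.000735). Srd5a1, the steroid 5-alpha-reductase of androgen and progesterone metabolism, was at 12.4, 17.99 and 13.5 CPM in wild type and 2.06, 2.15 and 2.11 in Smarcb1 KO. The 3 Smarcb1 KO values were almost equal and all under the lowest wild-type one, and the change was -2.79 (SE 0.235, adjusted p = 0.00102).

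Secreted factors, and the enzyme gene Moxd1, were among these lower genes. Neurturin, Nrtn, a ligand of the GDNF family that signals through Ret, was at 5.37, 8.25 and 6.2 CPM in wild type and 0.433, 0.317 and 0.135 in Smarcb1 KO, a change of -4.47 (SE 0.383, adjusted p = 0.00102). The cytokine Mif was at 139, 169 and 132 CPM in wild type and 34.3, 46.6 and 36.9 in Smarcb1 KO, a change of -1.901 (SE 0.147, adjusted p = 0.000943), which was -0.94 without the GC trend. Pcsk1n (proSAAS), an inhibitor of a prohormone convertase found in neuroendocrine cells, was at 8.74, 11.8 and 5.43 CPM in wild type and 0.331, 0.769 and 0.541 in Smarcb1 KO, and had a change of -3.97 (SE 0.464, adjusted p = 0.00348). It was the call among 13 granin and prohormone genes, whose median was -0.02 with 6 positive. The list's summed level was 1869.6, 6377 and 1054 CPM in wild type and 6252, 7158 and 8322 in Smarcb1 KO, with overlapping groups. Moxd1, a monooxygenase related to dopamine beta-hydroxylase, was at 115, 57.3 and 95.5 CPM in wild type and 9.31, 11.1 and 19.3 in Smarcb1 KO, a change of -2.76 (SE 0.376, adjusted p = 0.00658). It has 48.8% GC, and the change was -2.88 without the trend.

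Other members of the set act in nucleic acid and organelle biology. Endog, the mitochondrial endonuclease G, fell, with a change of -3.02 (SE 0.253, adjusted p = 0.00102), from 8.86, 8.65 and 9.85 to 1.22, 1.34 and 0.812 CPM. Sf3b5, a subunit of the SF3b splicing complex, was at 30.8, 32.1 and 30.5 CPM in wild type and 8.98, 11.97 and 9.99 in Smarcb1 KO, which is -1.59 (adjusted p = 0.00102). The longest annotated transcript of Sf3b5, of 3841 bases, has 45.5% GC, below the middle of all genes. With the trend removed on that value the change grew to -1.83. Which transcript the reads came from was not tested. Rnaseh2c, a subunit of the RNase that cuts RNA from RNA-DNA hybrids, had -1.55 (adjusted p = 0.00152). The histone variant gene H2afj had -1.36 (adjusted p = 0.00178), and the Rab acceptor Rabac1, a membrane protein of the Golgi, -1.44 (adjusted p = 0.00102). Ccdc85b had -1.94 (adjusted p = 0.00175), Crygn, of the crystallin family, -1.88 (adjusted p = 0.00152) and Fam100a -0.89 (adjusted p = 0.00143). In all of these genes the groups did not overlap. Without the GC trend the change was smaller in Endog (-1.95), Rnaseh2c (-1.12), H2afj (-1.22), Rabac1 (-0.85), Ccdc85b (-1.77), Crygn (-1.25) and Fam100a (-0.59), all still called.

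Some of the largest falls varied widely between libraries. Amdhd1, an enzyme of histidine breakdown, was at 1.12, 27.9 and 16.5 CPM in wild type and 0.229, 0.543 and 0.433 in Smarcb1 KO. Wild-type library 1 was near the Smarcb1 KO level, and the change of -5.22 (SE 0.992, adjusted p = 0.019) kept its call in 4 of the 6 fits. Ceacam19 was at 29, 4.01 and 33.4 CPM in wild type and 2.19, 1.7 and 0.65 in Smarcb1 KO, low in wild-type library 2, a change of -3.87 (SE 0.967, adjusted p = 0.0439) called in 1 of 6. The alpha-globin gene Hba-a1 was at 471, 68.6 and 319 CPM in wild type and 12.5, 30.5 and 10.1 in Smarcb1 KO, a change of -4.01 (SE 0.744, adjusted p = 0.0179) called in 3 of 6, and the beta-globin gene Hbb-b1 was at 864, 213 and 880.5 CPM in wild type and 124, 143 and 77.4 in Smarcb1 KO, a change of -2.51 (adjusted p = 0.0315). These globins are erythroid markers themselves, and a sum of the erythroid list without them was not taken. Near-identical gene copies make both counts uncertain. The linker histone gene H1fx, with 71.3% GC, had -2.67 (adjusted p = 0.00976), which was -0.72 (adjusted p = 0.243) without the GC trend.

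Among genes with regular symbols, 5 were higher in every one of the 9 fits. Cdk5rap1, which modifies mitochondrial transfer RNAs, was at 7.8, 9.31 and 7.86 CPM in wild type and 21.04, 25.1 and 26.2 in Smarcb1 KO. It rose 2.9-fold, by 1.53 (SE 0.155, adjusted p = 0.002), and by 1.499 without the GC trend. Rassf4, of the Ras-association domain family, was at 26.4, 25.6 and 20.6 CPM in wild type and 75.97, 57.6 and 60.1 in Smarcb1 KO, a rise of 1.42 (SE 0.189, adjusted p = 0.00601). Plxna2, a semaphorin receptor, was at 27.8, 32.4 and 30.7 CPM in wild type and 68.9, 62.5 and 84.9 in Smarcb1 KO, a rise of 1.25 (SE 0.165, adjusted p = 0.00582). Eya1, a transcriptional coactivator and phosphatase that the developing thymus, parathyroid and thyroid need, was at 9.22, 11.7 and 7.18 CPM in wild type and 23.4, 21.6 and 23.6 in Smarcb1 KO, a rise of 1.29 (SE 0.198, adjusted p = 0.0095). The kallikrein-related peptidase gene Klk10 was low, at 0.091, 0.142 and 0.178 CPM in wild type and 0.738, 0.815 and 0.514 in Smarcb1 KO, a rise of 2.31 (SE 0.372, adjusted p = 0.0111). The groups did not overlap in any of these. With the parathyroid covariate the rises of Cdk5rap1, Rassf4, Plxna2, Eya1 and Klk10 were 1.53, 1.12, 1.1, 0.98 and 2.64. Within wild type, Cdk5rap1, Plxna2 and Eya1 were highest in library 2, which has the most parathyroid marker RNA, and Rassf4 and Klk10 were not.

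The largest rises were less secure. Lect1 (chondromodulin), made by cartilage, was at 1.82, 2.39 and 2.46 CPM in wild type and 181, 6.09 and 113 in Smarcb1 KO. Libraries 1 and 3 were high and library 2 was closer to wild type, and the change was 5.49 (SE 1.02, adjusted p = 0.0181), called in 2 of 6 fits without 1 library. The cartilage list summed to 142, 147 and 159 CPM in wild type and 284, 146 and 268 in Smarcb1 KO. Lect1 alone was at 181 and 113 CPM in Smarcb1 KO libraries 1 and 3, and a sum without Lect1 was not taken. The lung surfactant genes Sftpa1 and Sftpd rose by 3.79 (adjusted p = 0.0139) and 3.32 (adjusted p = 0.0218) from very low levels, Sftpa1 being at 0.091, 0.256 and 0.119 CPM in wild type and 2.75, 3.06 and 0.785 in Smarcb1 KO. The airway epithelium list summed to 153, 109.6 and 79.3 CPM in wild type and 7.12, 433 and 31.4 in Smarcb1 KO. Grem1, a secreted BMP antagonist, was at 4.79, 2.22 and 6.41 CPM in wild type and 17.8, 34.2 and 16.2 in Smarcb1 KO, a rise of 2.35 (SE 0.501, adjusted p = 0.0272), and the phosphatase subunit Ppp4r4 rose by 1.92 (adjusted p = 0.0346) with library 2 far above libraries 1 and 3.

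Another 7 of the largest rises, grouped after their values were seen, were highest, within wild type, in the library with the most parathyroid marker RNA. Of the rises given above, Sftpa1 was highest in that library too, at 0.256 CPM, and Lect1, Sftpd, Grem1 and Ppp4r4 were not. Adora3, an adenosine receptor, was at 0.789, 1.68 and 0.475 CPM in wild type and 7.79, 3.73 and 5.44 in Smarcb1 KO. Qpct, which forms the pyroglutamate end of peptide hormones, was at 6.86, 13.7 and 4.48 CPM in wild type and 45.6, 21.1 and 39.2 in Smarcb1 KO. Sytl4 (granuphilin), which docks secretory granules, was at 19.8, 41.1 and 15.9 CPM in wild type and 138, 49.8 and 87.6 in Smarcb1 KO. In each of them wild-type library 2, with 9283 CPM of parathyroid markers, was the highest of its group. The same held for Flrt2, at 11.3, 26.8 and 10.1 CPM in wild type and 64.4, 37.3 and 68.3 in Smarcb1 KO, the nuclear receptor Esrrg at 3.03, 8.99 and 3.14 CPM in wild type and 17.8, 16.7 and 17.9 in Smarcb1 KO, the secretory kinase partner Fam20a at 5.25, 12.5 and 4.86 CPM in wild type and 23.4, 16.05 and 38.7 in Smarcb1 KO, and the release-site scaffold Rims2 at 1.09, 2.36 and 2.25 CPM in wild type and 4.94, 7.47 and 7.39 in Smarcb1 KO. Their log2 changes were 2.52, 2.08, 1.84, 1.82, 1.79, 1.79 and 1.79 in that order, all called. Within Smarcb1 KO, library 1 has the most parathyroid marker RNA, and it was the highest for Adora3, Qpct and Sytl4 but not for Flrt2, Esrrg or Fam20a, and was the lowest for Rims2. With the parathyroid covariate the changes were 1.82, 1.37, 1.32, 1.31, 1.32, 1.22 and 2.05, with adjusted p from 0.0605 for Rims2 to 0.202 for Fam20a, and none was called.

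Follicular cells are joined by tight junctions and polarised toward the lumen. In the list of 31 tight junction and polarity genes 6 fell (19.4%, beside 5.74% of all genes) and 0 rose, although 20 were positive. Claudin 3, Cldn3, a seal of epithelial junctions, was at 111, 111 and 107 CPM in wild type and 19.8, 42.1 and 33.99 in Smarcb1 KO. The wild-type libraries were nearly equal and all above the Smarcb1 KO ones, a change of -1.78 (SE 0.236, adjusted p = 0.00597) that held in all 9 fits and was -0.95 without the GC trend. Llgl2, which keeps basolateral identity, was at 60.1, 58.5 and 56.8 CPM in wild type and 17.9, 29.4 and 28.6 in Smarcb1 KO, a change of -1.21 (SE 0.176, adjusted p = 0.00747), and missed the threshold without the GC trend at -0.60 (adjusted p = 0.0554). Crb3, the apical crumbs protein, was at 29.5, 35.2 and 29.8 CPM in wild type and 19.8, 18.6 and 17.2 in Smarcb1 KO, a change of -0.77 (SE 0.115, adjusted p = 0.0089), or -0.36 (adjusted p = 0.27) without the trend.

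The other 3 were the basolateral scaffold Scrib at -0.86 (adjusted p = 0.0177), the junction scaffold Tjp3 (ZO-3) at -0.92 (adjusted p = 0.0183) and Cldn7 at -0.50 (adjusted p = 0.0304). Their changes without the GC trend were -0.17, -0.27 and -0.19, and Cldn3 alone stayed called in the list. With the parathyroid covariate 3 of the list fell, Cldn3, Llgl2 and Crb3. Of 30 adherens junction and desmosome genes 1 fell, the plakophilin Pkp3 at -0.65 (adjusted p = 0.0301), and 1 rose. Pkp3 had -0.06 without the GC trend. By edgeR none of 13 keratins was called, with 4 at an unadjusted p under 0.05, while DESeq2 called 3 lower and limma-voom 0. Without Smarcb1 KO library 2 edgeR called 5 keratins lower and the median went from 0.18 to -0.99, and without wild-type library 1 it called 1 lower. Krt7 was at 210.1, 232 and 173 CPM in wild type and 109, 148 and 71.4 in Smarcb1 KO, with no overlap and a change of -0.90 (adjusted p = 0.0638). None of 18 genes of mesenchymal transition was called by edgeR, with 2 at an unadjusted p under 0.05, and DESeq2 and limma-voom called 0.

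Matrix genes come mainly from the stroma between follicles. Of 40 collagens 7 fell (17.5%, beside 5.74% of all genes) and 0 rose, and of 40 elastic fibre and basement membrane genes 6 fell (15%) and 1 rose. Col1a1, a chain of fibrillar collagen I, was at 239, 211 and 254 CPM in wild type and 100.2, 137 and 99.8 in Smarcb1 KO, a change of -1.06 (SE 0.189, adjusted p = 0.0159). Its partner Col1a2 was at 437, 382 and 444 CPM in wild type and 298, 294 and 259.8 in Smarcb1 KO, a change of -0.57 (SE 0.128, adjusted p = 0.032). Col5a1, which nucleates those fibrils, was at 99.9, 85.1 and 105 CPM in wild type and 45.2, 51.6 and 53.5 in Smarcb1 KO. It was the collagen that held in all 6 fits without 1 library, at -0.95 (SE 0.126, adjusted p = 0.00582). The other 4 were Col16a1 at -1.05, Col9a3 at -0.95, the basement membrane collagen Col18a1 at -0.89 and Col5a3 at -0.75. No collagen was called without the GC trend, where the list's median was -0.04. With the parathyroid covariate 1 fell, Col5a1, and the list had 1 call without Smarcb1 KO library 3 and 12 without Smarcb1 KO library 2.

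Among elastic fibre genes, Loxl1, which crosslinks elastin, was at 32.1, 32.4 and 45.4 CPM in wild type and 13.7, 15.4 and 16.6 in Smarcb1 KO, a change of -1.27 (SE 0.198, adjusted p = 0.0101). Emilin1 fell, with a change of -1.23 (adjusted p = 0.0209), the TGF-beta binding proteins Ltbp4 and Ltbp3 at -1.11 (adjusted p = 0.0395) and -0.71 (adjusted p = 0.0436), and the microfibril gene Mfap2 at -1.09 (adjusted p = 0.0217). The laminin chain Lama5 of basement membranes was at 295, 232 and 249.9 CPM in wild type and 89.6, 154 and 139 in Smarcb1 KO, a change of -1.02 (SE 0.189, adjusted p = 0.0179). Efemp1 (fibulin 3) went the other way, at 21.1, 33.6 and 20.5 CPM in wild type and 77.2, 41.6 and 59.8 in Smarcb1 KO, a rise of 1.25 (SE 0.263, adjusted p = 0.026). Without the GC trend 0 of the 40 were called in either direction, and with the parathyroid covariate 1 was, Loxl1. Of 25 proteases and inhibitors the gelatinase Mmp2 fell, with a change of -0.48 (adjusted p = 0.0218) and the procollagen protease Adamts2 at -0.67 (adjusted p = 0.0205). Neither was called without the GC trend (adjusted p = 0.278 and 0.0979) or with the parathyroid covariate (0.104 and 0.122). Adamts1, which cleaves proteoglycans, was at 8.58, 7.23 and 12.3 CPM in wild type and 19.3, 22.3 and 21.7 in Smarcb1 KO and rose by 1.17 (SE 0.202, adjusted p = 0.0139), and by 1.08 (adjusted p = 0.0277) without the GC trend. The summed fibroblast markers were 1190.0, 1051 and 1108 CPM in wild type and 1439, 872 and 1004 in Smarcb1 KO, with library 1 highest of all 6, and edgeR called no fibroblast marker, with 1 at an unadjusted p under 0.05, while DESeq2 called 1 lower and limma-voom 0.

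**Figure D5:**
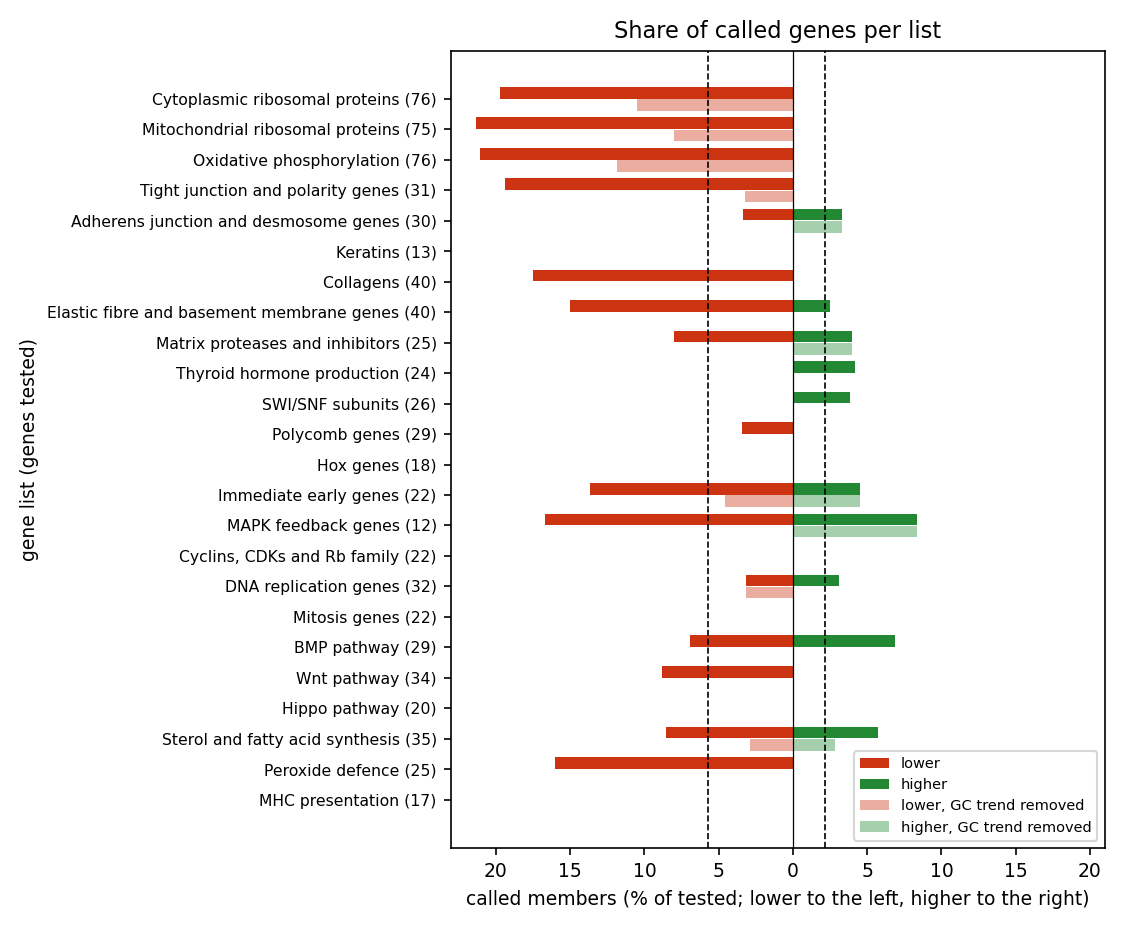
Called members of 24 gene lists as a percentage of those tested, lower to the left in red and higher to the right in green, with the paler bars for the fit with the GC trend removed. Dashed lines mark the background of all genes, 5.74% lower and 2.15% higher. Ribosomal, respiratory chain, junction and collagen bars pass the lower background as fitted, and the collagen bar is absent with the GC trend removed.

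Calls in the respiratory chain were in 1 direction. Of 76 tested oxidative phosphorylation genes 16 fell (21.1%, beside 5.74% of all genes), 0 rose, 68 were negative, and the median was -0.29. This list is not GC-rich, with a median of 50.1% against 49.8% for all genes, and without the GC trend 9 fell (beside 1.94% of all genes) and the median was -0.37. The backgrounds here and for the ribosomal lists below are not matched for transcript length. Of all genes 9.3% fell at up to 1000 bases, 10% at 1000 to 2000 and 1.52% above 6000. In complex I, Ndufa7 was at 80.3, 92.7 and 91.4 CPM in wild type and 45.6, 51.1 and 43.3 in Smarcb1 KO, a change of -0.92 (SE 0.109, adjusted p = 0.00371) that held in all 9 fits. Uqcrq of complex III was at 83.3, 82.1 and 129 CPM in wild type and 28.7, 42.3 and 30.7 in Smarcb1 KO, a change of -1.53 (SE 0.247, adjusted p = 0.0111). Cox8a of complex IV was at 205, 226 and 264 CPM in wild type and 125, 121 and 114 in Smarcb1 KO, a change of -0.94 (SE 0.145, adjusted p = 0.0095). The delta subunit of ATP synthase, Atp5d, had -1.14 (adjusted p = 0.0133), and the complex I subunits Ndufb7 and Ndufs7 had -1.13 (adjusted p = 0.0113) and -1.26 (adjusted p = 0.0116).

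Other tissue markers moved beside this list. With the parathyroid covariate its median was -0.02 and 3 genes fell (beside 0.984% of all genes). Brown and white fat markers, from a tissue rich in mitochondria, summed to 936, 658 and 3177 CPM in wild type, highest in library 3, and 672, 1083 and 1183 in Smarcb1 KO. Without wild-type library 3 the list had 11 falls and a median of -0.15, and without Smarcb1 KO library 3 it had 5. The part of fat in the result was not tested further.

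Of 75 mitochondrial ribosomal proteins 16 fell (21.3%, beside 5.74% of all genes) and 0 rose, with 6 falls without the GC trend (1.94% of all genes) and 1 with the parathyroid covariate (0.984% of all genes). Mrps34, of the small subunit, was at 4.34, 5.83 and 5.81 CPM in wild type and 0.382, 0.769 and 0.433 in Smarcb1 KO. It was far below the rest of its list, at -3.32 (SE 0.303, adjusted p = 0.00133), and held in all 9 fits. Mrpl34 of the large subunit was at 14.2, 17.3 and 20.3 CPM in wild type and 6.67, 8.51 and 7.82 in Smarcb1 KO, a change of -1.17 (SE 0.185, adjusted p = 0.0106), and Mrps11 had -0.89 (adjusted p = 0.0095). The list had 3 falls without Smarcb1 KO library 3, 3 without wild-type library 2 and 3 without wild-type library 3.

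Of 76 cytoplasmic ribosomal proteins 15 fell (19.7%, beside 5.74% of all genes) and 0 rose, but 32 were positive and the median was -0.12. Rplp1, of the stalk that recruits elongation factors, was at 252, 385 and 345 CPM in wild type and 116, 137 and 90.9 in Smarcb1 KO, a change of -1.52 (SE 0.193, adjusted p = 0.00499). Rpl36 was at 75.6, 112 and 81.2 CPM in wild type and 24.6, 38.4 and 24.8 in Smarcb1 KO, a change of -1.61 (SE 0.211, adjusted p = 0.00562). Rps26 was at 144, 179 and 161 CPM in wild type and 81.8, 97 and 80.5 in Smarcb1 KO, a change of -0.90 (SE 0.114, adjusted p = 0.005), with 48.3% GC and -1.06 without the trend. These 3 and Rpl10a, at -0.62 (adjusted p = 0.0108), held in all 9 fits, and 8 members fell without the GC trend and 6 with the parathyroid covariate. Processed pseudogenes share long stretches with these genes, so their counts are uncertain.

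AP-1, a dimer of Jun and Fos proteins, relays growth and stress signals. Of 22 immediate early genes 3 fell and 1 rose, beside 5.74% and 2.15% of all genes. Junb was at 21.9, 22.4 and 18.8 CPM in wild type and 3.15, 7.74 and 2.98 in Smarcb1 KO, with no overlap, a change of -2.18 (SE 0.336, adjusted p = 0.0095) that held in all 9 fits and was -1.40 without the GC trend. Jund, made of 67.1% G and C, was at 85.6, 100.1 and 87.5 CPM in wild type and 34.5, 35.4 and 30.6 in Smarcb1 KO, a change of -1.44 (SE 0.115, adjusted p = 0.00102). Its change without the GC trend was 0.01 (adjusted p = 0.991), so its sign turned. Ier2 had -0.95 (adjusted p = 0.0185), or -0.30 (adjusted p = 0.247) without the trend. Fosb, below 2 CPM in all 6 libraries, was at 0.334, 0.171 and 0.297 CPM in wild type and 0.509, 1.77 and 0.839 in Smarcb1 KO and rose by 1.96 (SE 0.503, adjusted p = 0.0478), with the call kept in 1 of 6 fits without 1 library. Fos itself had 0.39 (adjusted p = 0.614) and Jun -0.49 (adjusted p = 0.303).

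In signalling and stress lists, a share of called genes near the 2.15% higher and 5.74% lower of all genes is no result about the list. The ERK pathway drives thyroid tumours with BRAF or RAS mutations and switches on its own inhibitors. Of 12 feedback genes 2 fell and 1 rose. The fallers were the receptor kinase antagonist Spry1, at 62.7, 51.7 and 71.1 CPM in wild type and 41.7, 45.8 and 35.6 in Smarcb1 KO and -0.59 (adjusted p = 0.0354), and Phlda1, at -0.71 (adjusted p = 0.0418). Spred3, a Sprouty-related inhibitor, was at 4.13, 7.51 and 5.61 CPM in wild type and 14.6, 11.3 and 12.5 in Smarcb1 KO, a rise of 1.16 (SE 0.223, adjusted p = 0.0202) and of 1.39 (adjusted p = 0.0348) without the GC trend. Spry1 and Phlda1 were not called without the GC trend (adjusted p = 0.337 and 0.216), and none of the 3 was with the parathyroid covariate, Spred3 having adjusted p = 0.107 there. Of 13 output factors the ETS factor Etv1 rose, from 4.34, 4.84 and 3.06 to 6.95, 9.3 and 10.6 CPM, by 1.13 (SE 0.24, adjusted p = 0.027), which was not called without the GC trend (adjusted p = 0.158), while Dusp6 had 0.36 (adjusted p = 0.197) and Etv4 1.19 (adjusted p = 0.0966). In the cAMP pathway, which carries the thyrotropin signal, the phosphodiesterase Pde4b was the call among 21 genes. It was at 8.19, 7.06 and 5.9 CPM in wild type and 15.6, 20.1 and 15.4 in Smarcb1 KO, a rise of 1.27 (SE 0.2, adjusted p = 0.0103) that stayed called in all 6 fits without 1 library and without the GC trend, at 1.04 (adjusted p = 0.0321). With the parathyroid covariate it missed the threshold, at 1.15 (adjusted p = 0.0713).

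Few cell cycle genes were called. EdgeR called none of 22 cyclins, kinases, inhibitors and Rb family members, with 8 at an unadjusted p under 0.05, while DESeq2 called 2 higher and 2 lower and limma-voom 0. None of 22 mitosis genes was called by edgeR, DESeq2 or limma-voom, 0 had an unadjusted p under 0.05, and the median was 0.32 with 17 positive. The cell cycle brake Cdkn2a, which SMARCB1 is known to switch on in rhabdoid cells, had -2.05 (adjusted p = 0.0856), and Cdkn1a had 0.24 (adjusted p = 0.739). Of 32 replication genes Mcm6, of the replicative helicase, fell from 24.8, 26.3 and 42.3 to 14.1, 17.3 and 12.2 CPM, at -1.095 (SE 0.226, adjusted p = 0.0241), and Pola1, the primase-polymerase catalytic chain, rose by 0.71 (adjusted p = 0.0466). Without the GC trend Mcm6 was called at -1.29 and Pola1 was not (adjusted p = 0.148), and neither was with the parathyroid covariate (adjusted p = 0.153 and 0.249). Of 20 p53 targets, Bbc3 (Puma), which triggers apoptosis, was at 6.61, 7.51 and 8.25 CPM in wild type and 1.63, 2.26 and 1.46 in Smarcb1 KO, a change of -2.06 (SE 0.26, adjusted p = 0.00493). It held in all 6 fits without 1 library and missed the threshold without the GC trend, at -0.90 (adjusted p = 0.0656). The death receptor gene Tnfrsf10b was at 7.13, 7.74 and 10.03 CPM in wild type and 13.3, 17.99 and 22.1 in Smarcb1 KO, a rise of 1.100 (SE 0.214, adjusted p = 0.0205), or 0.97 (adjusted p = 0.0553) without the GC trend.

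SWI/SNF and Polycomb oppose each other at many developmental genes. Of 29 Polycomb genes 1 fell and 0 rose, beside 5.74% and 2.15% of all genes. The faller was the PRC1 ubiquitin ligase Ring1, at 31.8, 37.1 and 33.1 CPM in wild type and 17.5, 22.2 and 24.7 in Smarcb1 KO. Its change was -0.66 (SE 0.14, adjusted p = 0.0262), with no call without the GC trend (adjusted p = 0.203) or with the parathyroid covariate (0.0897). The methyltransferase Ezh2 had 0.47 (adjusted p = 0.254). Hox genes, classic Polycomb targets, were low. Of 36 listed, 18 passed the filter on low counts, and 3 of them were positive. EdgeR called 0, with 2 at an unadjusted p under 0.05, and DESeq2 and limma-voom called 0.

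The shares in this paragraph stand beside 2.15% higher and 5.74% lower of all genes. In the BMP pathway of 29 genes 2 rose and 2 fell. Both risers are antagonists, Grem1 given above and Chrdl1, at 12.8, 13.2 and 12.9 CPM in wild type and 19.1, 26.8 and 24.3 in Smarcb1 KO and 0.85 (SE 0.174, adjusted p = 0.0235). Smad6, the inhibitory Smad that BMP signals switch on, was at 26.2, 19.6 and 21.4 CPM in wild type and 7.66, 8.67 and 5.93 in Smarcb1 KO, a change of -1.59 (SE 0.221, adjusted p = 0.00658), and the procollagen protease Bmp1 had -0.57 (adjusted p = 0.028). Without the GC trend no gene of the list was called, and Grem1 had 2.11 (adjusted p = 0.0669). Of 34 Wnt genes the receptors Fzd7 and Fzd8 fell, with a change of -0.42 (adjusted p = 0.0464) and -0.85 (adjusted p = 0.0418) and the feedback inhibitor Nkd1 at -0.81 (adjusted p = 0.0394), Nkd1 being at 188, 137 and 134 CPM in wild type and 80.1, 106 and 75.3 in Smarcb1 KO. None of the 3 Wnt genes was called without the GC trend or with the parathyroid covariate, and the list had 0 calls without any 1 of the 6 libraries other than Smarcb1 KO library 2, without which it had 4. Of 21 Notch genes Hes6 fell, with a change of -0.81 (adjusted p = 0.00658), which was -0.04 without the GC trend. Of 12 Hedgehog genes the coreceptors Boc, at 108, 97.1 and 104 CPM in wild type and 60.9, 64.1 and 56.1 in Smarcb1 KO and -0.77 (SE 0.109, adjusted p = 0.00696), and Gas1, at -0.61 (adjusted p = 0.0285), fell. Boc was called in all 6 fits without 1 library, but without the GC trend and with the parathyroid covariate neither was, Boc having adjusted p = 0.0525 and 0.0514 there. None of 20 Hippo genes was called by edgeR, with 6 at an unadjusted p under 0.05, while DESeq2 called 1 lower and limma-voom 0.

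Sterol synthesis split in both directions. Stard4, a carrier of cholesterol, was at 5.76, 8.4 and 11.1 CPM in wild type and 22.2, 18.3 and 23.2 in Smarcb1 KO, a rise of 1.33 (SE 0.232, adjusted p = 0.0144) that stayed called without the GC trend at 1.04 (adjusted p = 0.0473). The enzymes Mvk and Mvd of the mevalonate pathway fell, with a change of -0.93 (adjusted p = 0.0218) and -0.72 (adjusted p = 0.0415), and Srebf2, the factor that drives the pathway, at -0.67 (adjusted p = 0.0306). In the whole list 2 of 35 genes rose and 3 fell, beside 2.15% and 5.74% of all. Without the GC trend Mvk was called and Mvd and Srebf2 were not, and with the parathyroid covariate 0 genes of the list were called, Stard4 having 1.52 (adjusted p = 0.0515) and Mvk, Mvd and Srebf2 adjusted p = 0.111, 0.216 and 0.136.

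Hydrogen peroxide is made in quantity by follicular cells. Of 25 peroxide defence genes 4 fell (16%) and 0 rose, beside 5.74% and 2.15% of all genes. The glutathione peroxidase Gpx1 was at 176, 182 and 251 CPM in wild type and 91.7, 111 and 88.3 in Smarcb1 KO, a change of -1.06 (SE 0.185, adjusted p = 0.0143). The peroxiredoxin Prdx5 was at 244, 266 and 234 CPM in wild type and 168, 147 and 142 in Smarcb1 KO, a change of -0.71 (SE 0.117, adjusted p = 0.0122). Gpx4, which protects membrane lipids, had -0.80 (adjusted p = 0.0317), and the Nrf2 inhibitor Keap1 -0.52 (adjusted p = 0.0384). None of the 4 was called without the GC trend or with the parathyroid covariate.

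Among 21 heat shock genes the chaperones Hspa4, Hsph1 and Dnaja1 rose by 0.38 (adjusted p = 0.0436), 0.68 (adjusted p = 0.027) and 0.60 (adjusted p = 0.0283), and the small chaperone Hspb8 fell, with a change of -0.72 (adjusted p = 0.0311). None stayed called without the GC trend or with the parathyroid covariate. Of 30 genes for folding in the endoplasmic reticulum, Edem2 and Derl3, both of the degradation route, fell, with a change of -0.45 (adjusted p = 0.0367) and -0.65 (adjusted p = 0.0224). Neither was called without the GC trend (adjusted p = 0.1002 and 0.375) or with the parathyroid covariate (0.207 and 0.109). Of 19 Atf4 targets the asparagine synthetase gene Asns was at 25.4, 23.8 and 25.9 CPM in wild type and 51.1, 30.9 and 44.4 in Smarcb1 KO, a rise of 0.75 (adjusted p = 0.0325), and Atf5 fell, with a change of -0.64 (adjusted p = 0.0381), with its sign turned to 0.12 without the GC trend. The glucose transporter Slc2a1 was the call among 25 glycolysis and hypoxia genes, at 56.5, 54.1 and 45.5 CPM in wild type and 32.1, 39.3 and 33.3 in Smarcb1 KO and -0.58 (adjusted p = 0.0367). Asns and Slc2a1 were not called without the GC trend or with the parathyroid covariate.

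Immune lists held few calls. Of 25 interferon response genes Ifi44 rose by 0.88 (adjusted p = 0.0351), or 0.57 (adjusted p = 0.224) without the GC trend. None of 17 genes of MHC presentation was called by edgeR, with 3 at an unadjusted p under 0.05. Of these genes 15 were negative, the median was -0.37, DESeq2 called 1 lower and limma-voom 0. Without Smarcb1 KO library 2 edgeR called 5 lower, with a median of -0.70. Of 12 macrophage markers C1qc fell, at 47.2, 40.8 and 45.7 CPM in wild type and 19.7, 31.6 and 13.8 in Smarcb1 KO and -1.04 (SE 0.248, adjusted p = 0.0384). It was not called without the GC trend (adjusted p = 0.1002) or with the parathyroid covariate (0.173), and the list had 5 falls without Smarcb1 KO library 2 and 0 without any other 1 of the 6. Of 12 endothelial markers the angiopoietin receptor gene Tek and Emcn rose by 0.61 (adjusted p = 0.0463) and 0.58 (adjusted p = 0.0266), Emcn being at 66.2, 67.05 and 80.4 CPM in wild type and 100.2, 109 and 111 in Smarcb1 KO. Both missed the threshold without the GC trend.

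Of the clock genes Dbp, an output factor with a steep daily rhythm, was at 96.1, 115 and 87.95 CPM in wild type and 43.6, 47.6 and 63.7 in Smarcb1 KO, a change of -0.95 (SE 0.196, adjusted p = 0.0245), and the repressor Nr1d1 had -0.73 (adjusted p = 0.0459). Neither was called without the GC trend or with the parathyroid covariate, and the labels give no time of dissection. In histidine and one-carbon breakdown, Sardh fell, with a change of -0.50 (adjusted p = 0.0474) beside Amdhd1. Of the nerve and Schwann cell list the neural crest factor Foxd3 fell, with a change of -2.37 (adjusted p = 0.0443), from under 1 CPM. Sardh and Foxd3 were not called without the GC trend (adjusted p = 0.352 and 0.266).

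The Arid2 KO libraries allow the same genes to be set beside another SWI/SNF knockout. The comparison shares the 3 Smarcb1 KO libraries with the one above, so its values are given side by side only. Foxe1 was at 118, 147 and 174 CPM in Arid2 KO, between the other groups, and Smarcb1 KO was lower, with a difference of -1.48 (SE 0.187, adjusted p = 0.0047). Cldn3 was at 95.7, 119.9 and 103 CPM in Arid2 KO, and Smarcb1 KO was lower, with a difference of -1.73 (SE 0.236, adjusted p = 0.00562). Scand1 was at 9.12, 8.04 and 12 CPM, a difference of -4.16 (SE 0.282, adjusted p = 0.000621), and Srd5a1 at 24.9, 15.3 and 24.9 CPM, a difference of -3.36 (SE 0.239, adjusted p = 0.000621). Junb was at 16.4, 17.4 and 16.7 CPM, a difference of -1.86 (SE 0.332, adjusted p = 0.0119).

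Among the genes that rose, Eya1 was at 8.67, 7.65 and 6.2 CPM in Arid2 KO, below every Smarcb1 KO library, a difference of 1.61 (SE 0.199, adjusted p = 0.00436). Rassf4 was at 27.9, 25.7 and 17.9 CPM, a difference of 1.44 (SE 0.188, adjusted p = 0.00502). Cdk5rap1 was at 12.2, 9.69 and 12.3 CPM, a difference of 1.08 (SE 0.153, adjusted p = 0.00629). Plxna2 was at 62.4, 54.3 and 42.4 CPM, where the difference from Smarcb1 KO missed the threshold, at 0.44 (SE 0.162, adjusted p = 0.0869). Grem1 was at 22.9, 42.9 and 15.1 CPM, with a difference of -0.25 (SE 0.469, adjusted p = 0.728).

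Thyroid function genes differed between the knockouts in other places. The dual oxidase maturation factor Duoxa1 was at 2.39, 2.94 and 3.57 CPM in Arid2 KO, and Smarcb1 KO was higher by 1.98 (SE 0.374, adjusted p = 0.0141). Slc5a5 was at 105, 143 and 134 CPM in Arid2 KO, a difference of 1.33 (SE 0.42, adjusted p = 0.0589) that missed the threshold. Lrp2 was at 118, 129 and 110.2 CPM, a difference of 0.94 (SE 0.172, adjusted p = 0.013). Of 22 mitosis genes 9 were lower in Smarcb1 KO than in Arid2 KO, beside 9.32% of all genes. Arid2 KO library 1 carries thymocyte markers, at 1550 CPM in sum against 8.83 and 10.5 CPM in the other two.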

How the data were processed

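Per the labels' protocols, frozen thyroid was extracted in TRIzol and the TruSeq RNA kit of Illumina was used for the libraries. The values are raw read counts per gene, whole numbers without normalization, as deposited by the authors. Tools named in the submitters' processing notes are HTSeq 0.6.1, STAR 2.4 and DESeq2, with mm9 as the build, but not what each did, and strand use in counting is not given in the sources used here, so overlapping and antisense genes are uncertain. All 9 libraries (33666251 to 89553766 counts) entered 1 edgeR 4.0.16 quasi-likelihood fit of 3 group means in R 4.3.3, with TMM scaling, filterByExpr by group (17079 of 33924 genes kept) and a Benjamini-Hochberg adjusted p under 0.05. Levels are CPM after TMM scaling, computed here, and since PCR copies were not marked by molecular identifiers, read numbers overstate the molecules counted. Replicate pairs differed beyond counting noise.

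Alternatives were other scalings and filters, DESeq2 1.42.0, limma-voom (limma 3.58.1), a fit of 6 libraries, stricter thresholds, thinning, leaving out each library, a spline of GC content (5 degrees of freedom, GRCm38 transcripts matched by symbol for 97.3% of tested genes) removed per library, and a parathyroid covariate. Removal of a trend over transcript length was added after seeing the data. The fitting code was tested on simulated data.

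The gene lists and the rule for named genes were chosen with earlier results of these data known. The rule names the SWI/SNF and thyroid genes, the 12 largest rises and 12 largest falls among called genes (mean log2 CPM not below 1, groups apart, regular symbol), up to 15 genes in each direction called in 9 fits, and any called list member. Only the main ones of these are printed. Some genes that the rule names are not reported here. Of 1260 list entries 1256 were in the table.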

Additional observations from a re-analysis of the deposited data

How the results depend on the processing

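The count of 1349 genes called against wild type became 2768 with the DESeq2 Wald test, 486 with the 6 libraries only, 418 with the GC trend removed, 471 with the GC and length trends removed (added after seeing the data), 197 with the parathyroid covariate, 91 with both the GC trend removed and the covariate, 2166 without the 2 thymus-marked libraries (Arid2 KO library 1 and Smarcb1 KO library 2), 192 at an adjusted p under 0.01 and 491 with a fold of at least 2. Leaving out each of the 9 libraries gave 344 to 2538. It stayed within 1.5 times of 1349 with other scalings, filters, limma-voom, a robust spread, thinning and the length trend removed. The 2779 calls against Arid2 KO became 4337 with DESeq2, 1075 with the GC trend removed, and 395 to 4411 without 1 library. The fall of Smarcb1 by -0.36 was called at -0.38 with DESeq2, at -0.55 with the length trend removed and at -0.56 with the GC and length trends removed, and nowhere else. The cause of these shifts was not tested.

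Of the 125 called genes named, 2 turned sign with the GC trend removed: Jund (0.0061) and Atf5 (0.12). With GC and length both removed they were at 0.0196 and 0.15. With the GC trend removed and the covariate, Atf5 (0.30), Col5a3 (0.072) and Gpx4 (0.024) turned. Of genes not called, Smarce1 turned with the GC trend removed (-0.0014, and -0.0094 with the covariate too), Pth with the covariate (-2.56, and -2.75 with the GC trend removed too), and Tg (-0.09) when Smarcb1 KO library 2 or wild-type library 1 was left out, with -0.21 to 0.033 over all such fits. The call was kept by 49 of the 125 with the GC trend removed, 43 with the covariate, 65 with the 6 libraries only, 111 with limma-voom and 125 with DESeq2. No paired analysis was possible because the labels give no replicate numbers, and the numbers used here follow deposit order. Groups of 3 limit what can be called.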

Other observations

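Some of the largest changes among the 113 genes called in 9 fits belong to pseudogenes and provisional genes, which the rule for named genes leaves out. The 4 here were chosen after their values were seen. Rps13-ps1, a processed pseudogene of a ribosomal protein, had 0.0607, 0.0285 and 0 CPM in wild type and 10.5, 9.23 and 8.85 in Smarcb1 KO (adjusted p = 0.00102 by edgeR), and was at 0, 0 and 0.0321 CPM in Arid2 KO. Gm12471 had 0, 0 and 0.0297 CPM in wild type and 1.501, 0.792 and 0.866 in Smarcb1 KO (adjusted p = 0.00313 by edgeR). In the other direction Gm4737 had 5.16, 5.95 and 2.49 CPM in wild type and 0.0254, 0.0679 and 0.0271 in Smarcb1 KO (adjusted p = 0.00177 by edgeR), with 0.154, 0.0782 and 0.0321 in Arid2 KO and 2900097C17Rik had 1.18, 0.968 and 1.07 CPM in wild type and 0, 0.0453 and 0 in Smarcb1 KO (adjusted p = 0.00252 by edgeR), with 0.396, 0.438 and 0.418 in Arid2 KO. Counts of pseudogenes are uncertain, since their reads can also come from the parent gene. The labels give no strain, so a difference in strain background between the groups was not tested.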
